A study of Homo sapiens with 9 samples.

Results

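The aryl hydrocarbon receptor (AHR) pathway genes described here are 7 genes: AHR itself, its partner ARNT, the repressor AHRR, and the target genes CYP1A1, CYP1B1, TIPARP and NQO1. They were identified by the gene names printed in the array's annotation and were read by 10 probes, out of 50598 probes for 36618 gene names on the array. The 7 genes were selected on the values of these same arrays, since earlier results for the K57N, F53S and WT lines were known when they were chosen. Their levels, differences, intervals and calls are therefore a description that supports nothing further, and no p-values are given for them.

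To compare the effects of 2 MEK1 mutants on gene expression, total RNA was profiled from HEK293 cells, a human embryonic kidney line, stably expressing HA-tagged MEK1 as WT, F53S or K57N. MEK1, encoded by MAP2K1, is the kinase that activates ERK. Each line was represented by 3 arrays, 9 in all, and each array was hybridised with 1 Cy3-labelled RNA sample. Slide 1 held the first replicate of the 3 lines, and slide 2 held replicates 2 and 3.

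According to the paper, the stable lines were made by plasmid transfection and puromycin selection. It states that all cells were profiled under steady-state conditions and that the arrays came from 3 independent experiments. The arrays of a line share its derivation, so the mutation and the line cannot be told apart, and p-values measure the spread between these arrays. The number of arrays limits the precision of every value. In RNA from whole cultures, fewer cells of a type and less RNA per cell cannot be told apart. Of the transcripts that mark HEK293 cells, PAX2, NEFL, VIM, KRT8 and KRT18 were detected on all 9 arrays and NEFM on 6.

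AHR is a ligand-activated transcription factor of the bHLH-PAS family that is held in the cytoplasm by HSP90. When a ligand such as a dioxin, a polycyclic hydrocarbon or a tryptophan derivative binds, the receptor enters the nucleus, pairs with ARNT and binds a short DNA element upstream of its targets. Among these targets are cytochrome P450 genes and its own feedback inhibitors AHRR and TIPARP.

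The core of that element, GCGTG, which HIF proteins also bind together with ARNT, was searched on both strands in the 250 bases before each start site in the RefSeq promoter table (GRCh38.p14). The table held 9 start sites for 6 of the 7 genes, all except CYP1B1. In the same window, 11313 of 35116 promoters in the table, or 32.2%, held the core. The promoters of AHR, whose transcript differed most between the lines, and of 1 repressor and 2 targets with the core are shown, with the core in either orientation in capitals. They lie at chr7:17298402-17298651 (plus strand) for AHR, chr5:322360-322609 (plus strand) for AHRR, chr15:74725529-74725778 (minus strand) for CYP1A1 and chr3:156674340-156674589 (plus strand) for TIPARP, and each is written 5′ to 3′ in the direction of its gene.
AHR: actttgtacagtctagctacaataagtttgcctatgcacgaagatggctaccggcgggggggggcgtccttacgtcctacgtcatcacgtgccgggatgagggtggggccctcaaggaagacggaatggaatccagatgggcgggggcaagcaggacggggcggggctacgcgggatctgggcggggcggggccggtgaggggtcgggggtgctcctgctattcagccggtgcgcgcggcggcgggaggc
AHRR: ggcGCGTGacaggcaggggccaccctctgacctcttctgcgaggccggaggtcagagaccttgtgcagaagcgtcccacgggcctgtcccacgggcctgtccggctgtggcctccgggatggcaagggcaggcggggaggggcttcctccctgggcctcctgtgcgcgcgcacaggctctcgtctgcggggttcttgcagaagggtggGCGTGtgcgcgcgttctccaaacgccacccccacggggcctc
CYP1A1: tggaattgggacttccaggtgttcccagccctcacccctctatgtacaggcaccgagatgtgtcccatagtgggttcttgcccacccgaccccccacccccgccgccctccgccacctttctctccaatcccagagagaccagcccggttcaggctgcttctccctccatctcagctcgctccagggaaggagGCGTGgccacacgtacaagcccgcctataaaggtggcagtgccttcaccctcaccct
TIPARP: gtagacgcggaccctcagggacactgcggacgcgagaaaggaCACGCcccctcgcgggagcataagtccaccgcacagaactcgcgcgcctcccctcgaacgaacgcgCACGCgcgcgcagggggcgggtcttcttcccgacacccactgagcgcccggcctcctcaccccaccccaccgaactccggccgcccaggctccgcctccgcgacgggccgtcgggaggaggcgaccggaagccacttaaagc

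The AHRR promoter shown, of the second of its 2 starts, held the core 2 times, with first bases 247 and 42 bases before the start. The window of the first AHRR start held it 1 time, 30 bases before the start. The CYP1A1 window held it 1 time, 57 bases before the start, and the first of 3 TIPARP windows held it 2 times, at 208 and 142 bases. The core was absent from these 250 bases for AHR, ARNT, NQO1 and the other 2 TIPARP starts. In the 50 bases after the start, which are not shown, AHR and NQO1 each had 1 further match. The antioxidant response element core TGACNNNGC, searched in the same way, was found in the ARNT window alone and in 10.9% of all promoters. A match describes the letters in the window, and binding was not measured.

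Signals are given as log2 of the processed signal relative to the 75th percentile of the same array, so that 1 unit is a 2-fold difference between arrays. Levels of different probes were ranked only to choose the brightest probe of a gene and the brightest genes of a list. A probe is called detected on an array where the scanner software put it well above background, and probes detected on 3 of 3 arrays of any line were tested. Of the 7 genes, 6 had such a probe, 8 of the 10 probes in all, and NQO1 had none. A gene was called where the adjusted p from limma was below 0.05 and the difference was more than 2-fold.

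**Figure D1:**
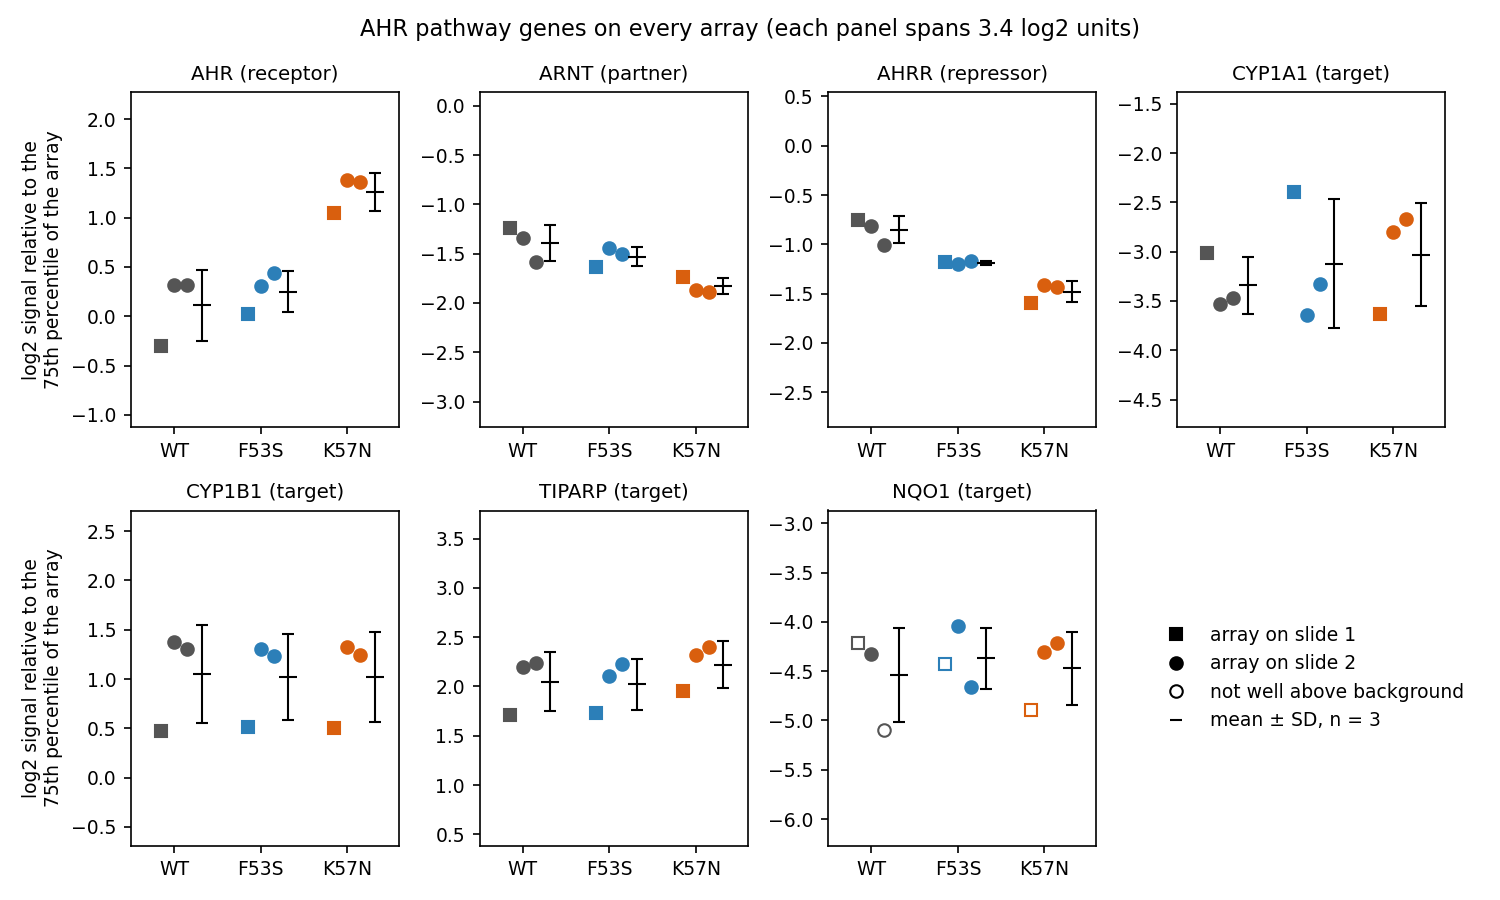
Log2 signal of the 7 AHR pathway genes on each of the 9 arrays, relative to the 75th percentile of the array, with 1 panel per gene for its brighter probe; squares are arrays on slide 1, circles are arrays on slide 2, open symbols mark arrays where the probe was not detected, and bars are the mean ± SD (n = 3). The K57N arrays lay above all others for AHR and below all others for ARNT and AHRR, and the lines overlapped for the 4 target genes.

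AHR, the receptor, was read by 2 probes. On the brighter one (hg19 chr7:17384999-17385058) its log2 signal was -0.30, 0.32 and 0.32 on the WT arrays, 0.02, 0.31 and 0.44 on the F53S arrays, and 1.05, 1.38 and 1.36 on the K57N arrays. All 3 K57N arrays lay above the 6 others, and the WT and F53S arrays overlapped. The mean log2 signal was 0.11 ± 0.36 in WT, 0.25 ± 0.21 in F53S and 1.26 ± 0.19 in K57N (SD, n = 3 each). K57N cells thus had 2.22-fold the AHR signal of WT cells, a log2 difference of 1.15 ± 0.22 (SE) with a 95% interval from 0.64 to 1.66. Of the 19214 genes tested, 97.7% had a lower K57N-minus-WT difference than AHR.

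Replicate 1, the only replicate on slide 1, was lower for AHR in every line, and slide and experiment cannot be told apart there. With the slide as a block the AHR difference between K57N and WT was again 1.15, and its SE was 0.10 with a 95% interval from 0.93 to 1.37. Within slide 1, with 1 array per line, the AHR difference was 1.35, and within slide 2 it was 1.05. The direction was thus the same on both slides.

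Between F53S and WT the AHR difference was 0.14 ± 0.22 (SE), with a 95% interval from -0.37 to 0.65, and it was 0.31 within slide 1 and 0.05 within slide 2. That difference was smaller than the spread between WT replicates. K57N exceeded F53S in AHR by 1.01 ± 0.22 (SE), with an interval from 0.50 to 1.52, and by 1.03 within slide 1 and almost the same within slide 2. The order of the 3 lines was therefore K57N above F53S and WT, the last 2 not being separated beyond their spread.

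The dimmer AHR probe (chr7:17382763-17382822) gave -2.33, -1.33 and -1.33 in WT, -1.90, -1.05 and -1.03 in F53S, and -0.49, -0.20 and -0.33 in K57N. Again the K57N arrays lay above all 6 others, and F53S overlapped WT over both slides. For each replicate number, however, F53S lay above WT. The F53S-minus-WT difference on this probe was 0.33, with 0.42 within slide 1 and 0.29 within slide 2. Its 95% interval with the slide as a block ran from -0.04 to 0.71. The log2 difference between K57N and WT on this probe was 1.32 ± 0.34 (SE), and it was 1.83 within slide 1 and 1.07 within slide 2. In contrast to the brighter probe, it did not pass the call without a block, and it passed with the slide as a block, where its SE was 0.16. Both AHR probes therefore had K57N highest, with a difference of more than 2-fold between K57N and WT on either slide.

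**Figure D2:**
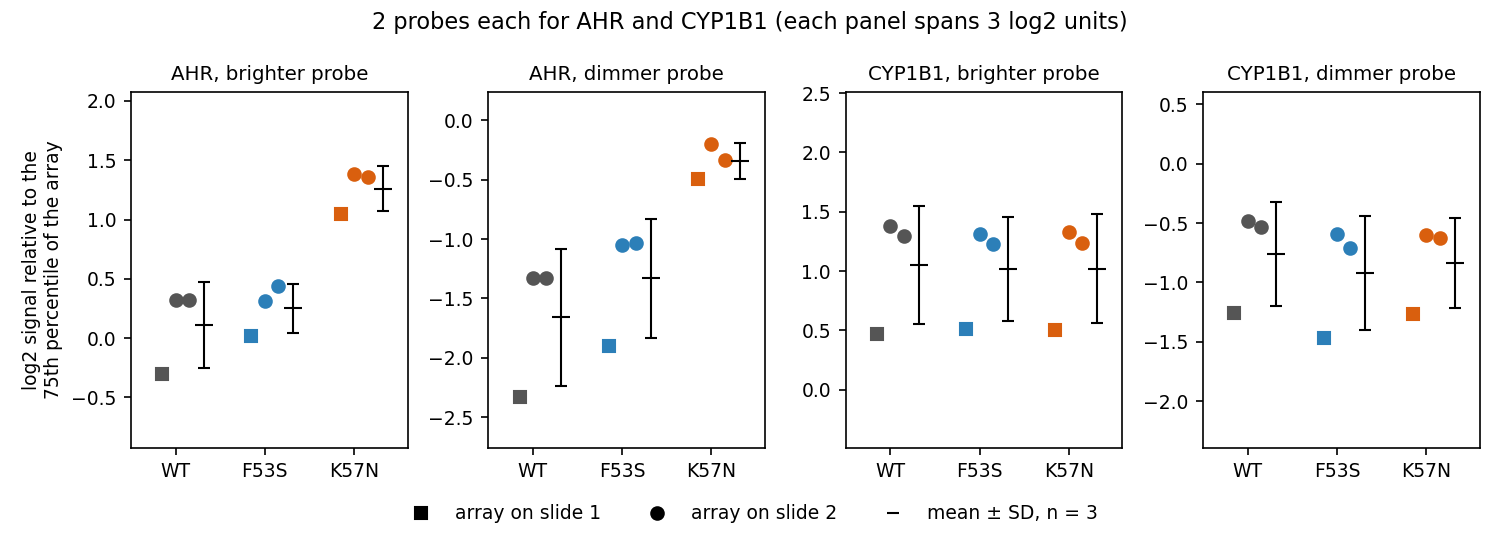
Log2 signal on each array for the 2 probes of AHR and the 2 probes of CYP1B1, relative to the 75th percentile of the array, where squares are slide 1, circles are slide 2, and bars are the mean ± SD (n = 3). Both AHR probes were higher on the 3 K57N arrays than on any other array, and both CYP1B1 probes differed between slides but overlapped between lines.

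ARNT, the bHLH-PAS protein with which AHR must pair to bind DNA, was read by 1 probe (hg19 chr1:150783044-150783103). Its log2 signal was -1.24, -1.34 and -1.58 in WT, -1.64, -1.44 and -1.50 in F53S, and -1.74, -1.87 and -1.89 in K57N. The K57N arrays lay below the 6 others, by a margin smaller than the spread within WT, and F53S overlapped WT. The K57N-minus-WT difference was -0.45 ± 0.16 (SE, 95% interval -0.80 to -0.09), with -0.50 within slide 1 and -0.42 within slide 2. ARNT was thus at 0.734 of its WT signal in K57N cells and was not called. The ARNT interval with the slide as a block was -0.72 to -0.18, still short of a 2-fold difference. The F53S-minus-WT difference was -0.14 ± 0.16 (SE), or -0.40 within slide 1 and -0.01 within slide 2, and the K57N-minus-F53S difference was -0.31 ± 0.16 (SE).

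AHRR, which competes with AHR for ARNT and represses the same promoters, was also read by 1 probe (hg19 chr5:438030-438089). Its log2 signal was -0.75, -0.81 and -1.01 on the WT arrays, -1.18, -1.20 and -1.17 on the F53S arrays, and -1.60, -1.41 and -1.43 on the K57N arrays. The 3 lines did not overlap for AHRR, with WT highest, F53S between and K57N lowest. The K57N-minus-WT difference was -0.62 ± 0.15 (SE, 95% interval -0.96 to -0.29), which left 0.649 of the WT signal. It was -0.86 within slide 1, -0.51 within slide 2 and had an interval from -0.87 to -0.38 with the slide as a block. F53S differed from WT in AHRR by -0.33 ± 0.15 (SE), and by -0.44 and -0.28 within slides 1 and 2. Between K57N and F53S the difference was -0.29 ± 0.15 (SE), and it was -0.42 and -0.23 within the slides. None of the AHRR differences reached 2-fold. Beside the higher AHR, the K57N arrays thus lay lowest for ARNT and AHRR, without either being called. Over all genes tested, 13.7% had a lower K57N-minus-WT difference than ARNT and 7.6% a lower one than AHRR.

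**Figure D3:**
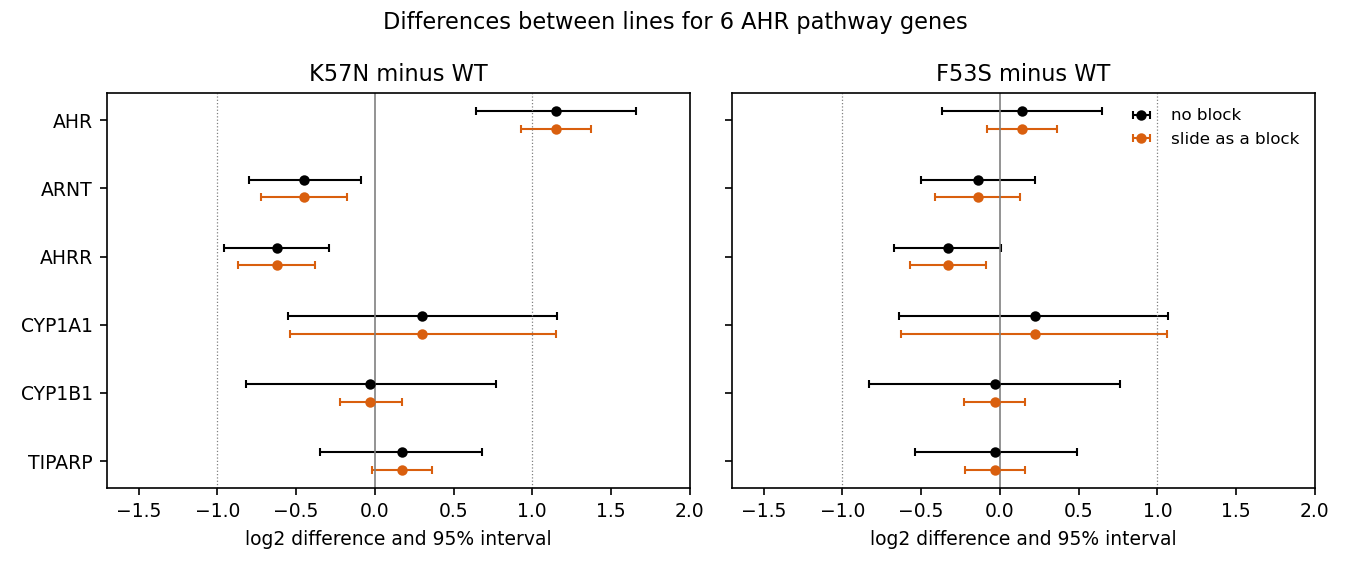
Log2 differences of the 6 tested AHR pathway genes between K57N and WT (left) and between F53S and WT (right), with 95% intervals from limma without a block (black) and with the slide as a block (orange), and dotted lines at 2-fold. Between K57N and WT, AHR lay at 1.15, ARNT at -0.45 and AHRR at -0.62, whereas the intervals of CYP1A1, CYP1B1 and TIPARP included 0.

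The targets were examined next. CYP1A1 encodes the cytochrome P450 enzyme that is the classical reporter of AHR activation. Its only probe (hg19 chr15:75012562-75012621) gave a log2 signal of -3.01, -3.53 and -3.47 in WT, -2.39, -3.64 and -3.33 in F53S, and -3.63, -2.80 and -2.67 in K57N. The probe was detected on all 9 arrays, though dim. On slide 1 the K57N array was the lowest of the 3, and on slide 2 both K57N arrays were the highest. The CYP1A1 difference between K57N and WT was accordingly -0.62 within slide 1 and 0.77 within slide 2, and 0.30 ± 0.37 (SE, 95% interval -0.55 to 1.16) over both. The SE remained at 0.36 with the slide as a block. No direction can be given for CYP1A1 in K57N cells. F53S differed from WT by 0.22 ± 0.37 (SE), by 0.62 within slide 1 and by 0.02 within slide 2.

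CYP1B1, a second P450 gene induced through AHR, was read by 2 probes on chromosome 2. The brighter one (hg19 chr2:38295444-38295503) gave 0.47, 1.38 and 1.30 in WT, 0.51, 1.31 and 1.23 in F53S, and 0.50, 1.33 and 1.24 in K57N. On each slide the 3 lines were close together, and the slides were further apart than any 2 lines. The K57N-minus-WT difference was -0.03, with a 95% interval from -0.22 to 0.17 with the slide as a block. The F53S-minus-WT difference was likewise -0.03, with an interval from -0.23 to 0.16. Without a block the CYP1B1 intervals were wider, from -0.82 to 0.77 for K57N and from -0.83 to 0.76 for F53S. The dimmer CYP1B1 probe (chr2:38297706-38297765) gave -1.26, -0.48 and -0.53 in WT, -1.47, -0.59 and -0.71 in F53S, and -1.27, -0.60 and -0.63 in K57N. Its K57N-minus-WT difference was -0.08, and the lines overlapped as on the brighter probe.

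TIPARP encodes a mono-ADP-ribosyltransferase that is induced by AHR and inhibits it. On its brighter probe (hg19 chr3:156424310-156424369) the log2 signal was 1.71, 2.20 and 2.24 in WT, 1.73, 2.11 and 2.23 in F53S, and 1.95, 2.32 and 2.40 in K57N. Over all arrays the lines overlapped, but on each slide the K57N arrays were the highest. Against the WT array of the same replicate number, K57N was higher by 0.23, 0.12 and 0.15. The TIPARP difference was 0.17 ± 0.22 (SE), and with the slide as a block its 95% interval ran from -0.02 to 0.36. F53S differed from WT by -0.03, with an interval from -0.22 to 0.16 with the block. In both mutant lines TIPARP was thus far from a 2-fold difference. The second TIPARP probe (chr3:156393033-156393092) was detected on 1 of the 9 arrays, in K57N, and gave no usable difference.

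NQO1 encodes a quinone reductase controlled by both AHR and NRF2. Its only probe (hg19 chr16:69744274-69744333) gave -4.21, -4.33 and -5.10 in WT, -4.43, -4.04 and -4.66 in F53S, and -4.89, -4.31 and -4.21 in K57N. It was detected on 1 WT array, 2 F53S arrays and 2 K57N arrays, so it was not tested. The 3 lines overlapped, and no fold is given for signals so near background.

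The differences of the targets were set against that of the receptor. For each replicate number, the K57N-minus-WT difference of TIPARP less that of AHR was -1.11, -0.94 and -0.89, and for CYP1B1 it was -1.32, -1.11 and -1.11. For CYP1A1 it was -1.97, -0.33 and -0.25, so the 2 slides differed widely, and the interval of CYP1A1 included the AHR difference. NQO1 was too near background to be compared. These values show unequal differences and not that a target was constant. Across the 9 arrays, after the mean of each slide was subtracted, AHR correlated with TIPARP at r = 0.92, CYP1A1 at 0.21, CYP1B1 at -0.12, AHRR at -0.88 and ARNT at -0.89 (n = 9 arrays). These arrays belong to 3 lines, and the part of the K57N line in each correlation was not tested. The r of TIPARP may therefore describe the 3 lines rather than an order of single arrays.

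Counted over the pathway, 1 of the 6 tested genes, AHR, was called higher in K57N than in WT and 0 were called lower. Over all 19214 genes tested, 292 (1.52%) were called higher and 142 (0.739%) lower. With the slide as a block, AHR was again the 1 gene called, beside 491 (2.56%) higher and 377 (1.96%) lower over the array, and with the replicate number as a block it was beside 483 (2.51%) and 358 (1.86%). The call of AHR was lost in 8 of 9 fits without 1 array. Its difference was then 0.94, 1.25 and 1.25 without WT replicate 1, 2 and 3, 1.15 without F53S replicate 2 or 3, and 1.26 and 1.09 without K57N replicate 1 and 2, with almost the latter value without replicate 3. Since earlier results of this contrast chose the genes, nothing is read from these counts.

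Between F53S and WT, 0 of the 6 genes were called, and 0 of 19214 genes over the array (0% higher and 0% lower), without a block and with either block. At an unadjusted p below 0.05 from limma, 38 genes were more than 2-fold higher and 5 lower, and the methods' t-test gave 24 and 0. Between K57N and F53S, 0 of the 6 genes were called without a block, beside 184 (0.958%) higher and 47 (0.245%) lower over the array. AHR was called higher there with the slide as a block, beside 362 (1.88%) higher and 211 (1.1%) lower, and with the replicate number as a block, beside 349 (1.82%) and 200 (1.04%). It was also called there without WT replicate 1, with a difference of 1.01. The dimmer AHR probe, with a K57N-minus-F53S difference of 0.99, was not called without a block or with the slide as a block. The 3 comparisons share arrays and are not independent.

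By overlap alone, between K57N and WT the arrays of 1 tested pathway gene did not overlap with K57N higher (AHR) and those of 2 did not with K57N lower (ARNT and AHRR), against 10.2% and 12.7% of all genes. Between F53S and WT the counts were 0 higher and 1 lower (AHRR), against 1.54% and 1.62% of all genes. Between K57N and F53S they were 1 higher (AHR) and 2 lower (ARNT and AHRR), against 8.31% and 10.4%. The median difference of the 6 genes was 0.07 between K57N and WT and -0.03 between F53S and WT, beside -0.06 and 0.01 for all genes tested.

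The proteins that carry or assist AHR were examined as a list of 8 genes, of which 7 were tested, among them the HSP90 chaperone genes and ARNT2, a paralog of ARNT. None of these 7 was called in any comparison, at an adjusted or an unadjusted p below 0.05 with limma or the methods' t-test. The median difference between K57N and WT was -0.04, beside -0.06 for all genes tested. HSP90AA1 had a K57N-minus-WT difference of 0.40 (adjusted p = 0.889) and HSP90AB1 one of 0.16 (adjusted p = 0.815). ARNT2, which can replace ARNT as a partner, was singled out after its values were seen. Its log2 signal was 2.07, 1.41 and 1.36 in WT, 1.90, 1.33 and 1.31 in F53S, and 1.18, 0.82 and 0.79 in K57N. The K57N arrays were thus lowest for ARNT2 as for ARNT, with a difference of -0.69 that did not reach 2-fold. No p-value is given for ARNT2, since it was picked for this pattern.

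Among 11 other genes known as AHR targets, 5 were tested between K57N and WT, and 1 was called higher, SERPINB2, which encodes plasminogen activator inhibitor-2. SERPINB2 was detected on 0 of the 6 WT and F53S arrays, and its log2 signal in K57N was -0.66, -2.43 and -2.43. Its K57N signal was above that of WT by at least 7.47-fold and above that of F53S by at least 7.64-fold. The limma fit used the values below background as read. Its adjusted p of 0.00443 against WT and 0.0111 against F53S do not test these bounds. SERPINB2 was tested because it was detected in K57N, the line that is higher. The number called in this list was 1 with no filter on dim probes and 0 with normexp. Such bounds set the mean of the bright line against, for each dim array, the higher of the lowest detected signal and the probe's own. With the slide as a block, GSTA2, a glutathione transferase gene, was also called lower in K57N than in WT (adjusted p = 0.00144, and 0.224 without the block). Its bound was at least 1.72-fold, which these p-values do not test. GSTA2 was tested because it was detected in WT, the line that is higher, and on 0 K57N arrays, and this bound is short of 2-fold. It was likewise called lower than in F53S with that block, and no bound is given there, since it was detected on 2 of 3 F53S arrays. CYP2S1, a further P450 gene, differed by -0.64 (adjusted p = 0.491, and 0.0116 with the slide as a block), short of 2-fold. Its K57N arrays lay below its WT arrays, and its other tested probe differed by -0.62. The aldehyde dehydrogenase gene ALDH3A1 differed by -0.26 (adjusted p = 0.984, and 0.153 with the block). The median of the 5 was -0.26 between K57N and WT, also with SERPINB2 and GSTA2 at their bounds, and -0.02 between F53S and WT. Of the 5, 2 lay above WT in K57N cells, SERPINB2 and, by 0.08 with overlapping arrays, CYP1A2. Nothing is read from these signs about the targets as a group. In F53S against WT 0 of the 5 were called, and 0 were more than 2-fold at an unadjusted p below 0.05 with limma or the methods' t-test.

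Because NQO1 also responds to NRF2, 19 genes of the NRF2 antioxidant response were listed, of which 18 were tested and 1, AKR1B10, was called between K57N and WT. AKR1B10, an aldo-keto reductase gene, was detected on no WT array. Its K57N signal was above WT by at least 1.79-fold, a bound short of 2-fold. The adjusted p of 0.0385 from limma is for the values as read and does not test this bound. The gene was tested through its K57N arrays. The number called in this list was 0 with no filter on dim probes and with normexp. It was also 0 without any 1 of the WT or K57N arrays or F53S replicate 2. The 2 brightest of the other genes, FTH1 and TKT, differed by 0.01 (adjusted p = 0.999) and -0.03 (adjusted p = 0.996). Among the uncalled genes, K57N lay above WT without overlap for MAFG (0.61), HMOX1 (0.59) and SLC7A11 (1.11), and below for AKR1C1 (-0.79). SLC7A11 differed by 2.70 within slide 1 and by 0.32 within slide 2. Of all genes tested, 10.2% were higher and 12.7% lower without overlap. These genes are named for this pattern, so no p-value is given. The median of the 18 was 0.06, beside -0.06 for all genes. Against F53S, 0 were called in K57N without a block, 2 were past 2-fold at an unadjusted p below 0.05 from limma and 0 by the methods' t-test, and 1, AKR1B10, was called with the slide as a block. In F53S against WT 0 of 18 were called, at an adjusted or an unadjusted p with limma or the methods' t-test. The probe of NFE2L2, which encodes NRF2, was detected on 0 of the 9 arrays, and whether it reads the main transcript was not tested.

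Of 13 relatives of AHR in the bHLH-PAS family, 11 were tested and 1 was called in K57N against WT. This was NPAS2, a paralog of the circadian factor CLOCK, with log2 signals of -2.05, -2.04 and -1.91 in WT, -1.13, -1.64 and -1.57 in F53S, and -0.26, -0.67 and -0.66 in K57N. The 3 lines did not overlap for NPAS2, and the K57N-minus-WT difference was 1.47 ± 0.20 (SE, adjusted p = 0.00732), with 1.79 within slide 1 and 1.31 within slide 2. The number called in this list was 0 with no filter on dim probes and by adjusted p of the methods' t-test. HIF3A and EPAS1, the brightest uncalled relatives, differed by -1.04 (adjusted p = 0.864) and 0.48 (adjusted p = 0.19). With the slide as a block their adjusted p was 0.137 and 0.00724. Among the uncalled relatives, K57N lay above WT without overlap for EPAS1, NPAS1 (0.86) and HIF1A (0.29), and below for ARNT2. Of all genes tested, 10.2% were higher and 12.7% lower without overlap. NPAS1 had an adjusted p of 0.0193 from limma without a block and was short of 2-fold. The HIF3A value rests largely on K57N replicate 3, at 0.04 beside 1.85 in replicate 2, and its other tested probe differed by 0.06. The median of the 11 was 0.20. In F53S against WT and in K57N against F53S, 0 of the 11 were called, and 0 were past 2-fold at an unadjusted p with limma or the methods' t-test.

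Targets of the hypoxia factors, which also pair with ARNT, were read by 11 genes, of which 10 were tested and 0 were called in any comparison by limma without a block at the scaling described above. At an unadjusted p below 0.05 from limma or the methods' t-test, 1 was past 2-fold in K57N against WT, 1 in K57N against F53S and 0 in F53S against WT. The number called in K57N against WT was 1 on slide 2 alone, with normexp, quantile normalization or the deposited table and without F53S replicate 1, and quantile normalization also gave 1 against F53S. NDRG1 was called higher with the slide as a block, in K57N against WT, with a difference of 1.61 (adjusted p = 5.09e-05, and 0.0655 without the block). NDRG1 was also called higher than in F53S with that block. LDHA and PGK1 differed between K57N and WT by 0.16 (adjusted p = 0.822) and 0.11 (adjusted p = 0.975), and the median of the 10 was 0.18. Besides NDRG1, K57N lay above WT without overlap for VEGFA (0.71) and ANKRD37 (0.95), and below for EGLN3 (-0.64). Of all genes tested, 10.2% were higher and 12.7% lower without overlap. VEGFA, ANKRD37 and EGLN3 are named for this pattern, so no p-value is given for them.

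The enzymes that make or remove tryptophan-derived ligands of AHR were mostly dim, with 3 of 7 genes tested. None of the 3 was called in any comparison, at an adjusted or an unadjusted p with limma or the methods' t-test. IL4I1, which encodes an oxidase that forms AHR ligands from tryptophan, had a K57N-minus-WT difference of 0.69 (adjusted p = 0.746, and 0.00957 with the slide as a block). AFMID differed by 0.05 (adjusted p = 0.986) and KMO by -0.82 (adjusted p = 0.487), with -0.78 between F53S and WT for KMO, and the median of the 3 was 0.05. TDO2 and IDO2 were detected on 0 of the 9 arrays.

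Transcripts of ERK output were also read, from a list written with earlier results of these arrays known. Of these, 6 of 6 were called above WT in K57N, with a median difference of 4.17. Because of that choice, the count is a description and not an independent check on the labels. DUSP6, an ERK phosphatase gene, had a difference of 6.32 (adjusted p = 0.000278). SPRY2 differed by 2.26 and DUSP4 by 2.19. The brighter SPRY4 probe and those of ETV4 and ETV5 were not detected on WT replicate 1, and within slide 2, where they were, they differed by 4.09, 4.49 and 2.89, while a second tested SPRY4 probe differed by 0.22 over both slides. The medians given here include those undetected values. In F53S against WT the median of the 6 was 2.79, 0 were called, and 4 were past 2-fold at an unadjusted p below 0.05 from limma and 4 by the methods' t-test. In K57N against F53S 3 of the 6 were called higher, and 4 with the slide as a block, with a median of 1.44. A relation between these genes and AHR was not tested. MAP2K1 itself had a log2 signal of 2.36, 2.34 and 2.42 in WT, 2.50, 2.39 and 2.46 in F53S, and 2.92, 2.81 and 2.82 in K57N. Whether its probe reads the HA-tagged copy was not tested.

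Markers of cell types that the cultures should not hold were read as 9 genes. ALB, COL1A2 and DCN were detected on 0 arrays, PECAM1 on 2, both of K57N, and CD3E on 7, and PTPRC, CD68, APOA1 and CDH5 were on all 9. CD68, singled out after its values were seen, was highest on the K57N arrays, whereas CD3E was lower in K57N than in WT with no overlap (difference -1.15, adjusted p = 0.74) and PTPRC overlapped. The CD68 log2 signal was -1.58, -3.08 and -2.73 in WT, -1.18, -2.51 and -2.44 in F53S, and 0.24, -0.80 and -0.70 in K57N. Its K57N-minus-WT difference was 2.04, and no p-value is given, since CD68 was picked for this pattern. The part of these markers in the AHR result was not tested.

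The genes whose pattern was most like that of AHR were sought among the 17026 genes detected on all 9 arrays, after the mean of each slide was subtracted. The 5 with the highest Pearson r over the 9 arrays were ZFP36, ZCCHC12, MTRF1L and CD44 at 0.997 each and BAIAP2 at 0.996. Their K57N-minus-WT differences were 1.97, 1.34, 0.89, 1.37 and 0.81, and their F53S-minus-WT differences lay between 0.11 and 0.30. Being selected on their likeness to AHR, these transcripts share its pattern of lines by choice. Among the pathway genes, TIPARP stood at rank 938 of this order and CYP1A1 at rank 5771.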

How the data were processed

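Gene expression was read on 9 Agilent human arrays with 1 dye, 3 for each of the WT, F53S and K57N lines, grouped by the titles of the samples. The labels of 2 WT samples name the source cells with another number than HEK293, while the cell line field of all samples reads HEK293. For each array the authors deposited the output of Agilent Feature Extraction 10.10.1.1, in which the processed signal is an intensity after background subtraction, with no scaling between arrays. The authors also deposited a table of log2 values, which, once 1 constant is taken off each array, match the log2 processed signal to 0.05 for 99.7% to 99.9% of the 50598 probes. The medians of its columns lay between -3.851 and -3.411, and the centring of the table is not given in the sources used here.

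Signals were converted to log2 and set against the 75th percentile of the non-control spots of the array, which was a signal of 245 to 376.25 on slide 1 and of 695 to 821 on slide 2. Non-uniform and outlier spots were dropped, and repeated spots were averaged. Probes detected on 3 of 3 arrays of any line were tested, 25404 probes of 19214 genes. Genes were named by RefSeq accession for 28173 probes and by the array's annotation otherwise, and each was represented by its brightest probe. Probe positions are those of the annotation on hg19, and promoter sequences are from RefSeq on GRCh38.p14. The tests used limma 3.58.1 in R 4.3.3 with the data.table package (1.17.8), and tables and figures used Python 3.11.15, pandas 2.3.3 and matplotlib 3.10.9. The fit held 1 mean per line over all 9 arrays, and p was adjusted by the Benjamini-Hochberg method over all probes tested. The methods' t-test is 1 of the tests that their statistics section names for means, and they name no test for the arrays. The median SE over genes was 0.291, and 0.134 with the slide as a block. The median difference of all genes was -0.057 between K57N and WT, and moved by less than 0.1 with quantile normalization, normexp or the deposited table.

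Replicate numbers paired the arrays: with line means taken off, same-number arrays had r over genes from 0.35 to 0.88. The pairing is in part that of the slides, since within slide 2 the correlation was 0.047 to 0.22. Slide and replicate number were each fitted as a block.

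The 7 genes and the lists were chosen with earlier results of these data known. The genes named are the 7, all listed genes called in any comparison, the 2 brightest uncalled genes of each list, and the 5 genes most like AHR. A few others are named where the text says so or where a block, a list's count or a marker list calls for them.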

Additional observations from a re-analysis of the deposited data

How the results depend on the processing

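The 6 tested pathway genes were recomputed under 14 alternative settings, within slide 1, and without each of the 9 arrays. AHR stayed higher in K57N than in WT in all of these, with a log2 difference of 1.01 to 1.35 under the settings and of 0.94 to 1.26 without 1 array. Its call was kept in 10 of 23 tested alternatives and lost in 13, namely 5 settings and 8 of the 9 fits without 1 array, which have fewer arrays. AHRR stayed lower in K57N (-0.86 to -0.50 under the settings), as did ARNT (-0.50 to -0.39). The K57N-minus-WT difference of CYP1A1 ran from -0.62 within slide 1 to 0.77 within slide 2, and those of CYP1B1 and TIPARP lay between -0.32 and 0.31 in every setting and fit without 1 array. Except where stated, the cause of a change was not tested.

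Without a block and with the filter, 1 pathway gene was called between K57N and WT, 0 between F53S and WT and 0 between K57N and F53S. Over the array 292 genes were called higher and 142 lower in K57N against WT, 184 and 47 in K57N against F53S, and 0 in F53S against WT. With normexp, 0 pathway genes were called between K57N and WT, beside 144 genes higher and 44 lower over the array, and 72 and 4 in K57N against F53S. Then 1 gene, of the ERK output list, was called in F53S against WT, 0 of the other AHR targets in either K57N comparison, 0 NRF2 genes and 1 hypoxia target. With no filter on dim probes, which adds tests, 0 pathway genes were called in K57N against WT, beside 140 and 23 over the array, and 62 and 5 in K57N against F53S, with 0 NRF2 genes, 0 bHLH-PAS relatives and 1 ERK output gene against F53S. With probes detected on all 9 arrays, which leaves fewer genes, 157 genes were higher in K57N than in WT, 94 and 30 differed from F53S, and 0 other AHR targets, 0 NRF2 genes and 3 ERK output genes were called. With the mean of a gene's probes, and with 2 lines at a time, 0 pathway genes were called in K57N against WT, and the latter gave 90 lower there and 111 and 11 against F53S. Quantile normalization and the deposited table each called 1 hypoxia target in K57N against WT, and the former also 1 against F53S.

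With the replicate block, 1 pathway gene, AHR, was called in K57N against F53S as well as against WT. Over the array this paired fit called 483 higher and 358 lower in K57N against WT and 349 and 200 against F53S, with 2 other AHR targets and 1 hypoxia target in both K57N comparisons and 1 NRF2 gene against F53S. It changed no other call of the pathway genes. With the slide as a block the counts were 491 and 377, and 362 and 211, with 1 pathway gene against F53S, 2 other AHR targets and 1 hypoxia target in both and 1 NRF2 gene against F53S. Chosen after seeing the data, the slide block with no filter gave 310 lower in K57N against WT and 136 lower against F53S, 1 pathway gene against F53S, 2 other AHR targets and 1 hypoxia target in both, and 0 NRF2 genes against WT. On slide 2 alone 467 and 258 genes were called in K57N against WT, 342 and 131 against F53S and 2 higher in F53S against WT, with 2 other AHR targets and 1 hypoxia target in both K57N comparisons, 1 ERK output gene in F53S against WT and 6 in K57N against F53S. By adjusted p of the methods' t-test, 0 pathway genes were called in K57N against WT, beside 82 and 25 over the array, 24 and 2 against F53S, 0 other AHR targets in both, 0 bHLH-PAS relatives, and 3 and 1 ERK output genes. With p not adjusted, 312 were lower in K57N against WT, 332 and 165 differed from F53S and 24 were higher in F53S, with 1 pathway gene against F53S, 1 hypoxia target in both, and 4 and 6 ERK output genes in F53S against WT and K57N against F53S.

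Without 1 array the number called in K57N against WT was 0 to 1 for the pathway genes (0 without any array but F53S replicate 1), 157 to 342 higher and 47 to 186 lower over the array (lowest without K57N replicate 3 and WT replicate 3, highest without F53S replicate 1). It was 0 to 1 for the NRF2 genes (0 without any WT or K57N array or F53S replicate 2) and for the hypoxia targets (1 without F53S replicate 1). In K57N against F53S it was 0 to 1 for the pathway genes (1 without WT replicate 1), 66 to 195 higher and 6 to 48 lower over the array (lowest without F53S replicate 3, highest without WT replicate 1), 0 to 1 for the bHLH-PAS relatives (1 without F53S replicate 1), 0 to 1 for the other AHR targets (0 without F53S replicate 2 or 3) and 1 to 3 for the ERK output genes (1 without F53S or K57N replicate 2 or 3). In F53S against WT it was 0 to 3 higher over the array and 0 to 2 for the ERK output genes, both highest without WT replicate 1.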
